A study of Mus musculus with 8 samples.

Results

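The NRF2 oxidative stress response was followed at 10 genes in the accessible chromatin of adult mouse liver. They were the regulators Nfe2l2 and Keap1, the quinone and haem enzymes Nqo1 and Hmox1, the glutathione synthesis subunits Gclc and Gclm, the thiol enzymes Txnrd1 and Srxn1, and the peroxide and superoxide enzymes Cat and Sod2. The genes were chosen by name for their place in this pathway, with earlier results of these data known. They are 10 of 21728 protein-coding genes on chromosomes 1 to 19 and X. Every genotype-specific open region that overlapped a gene body or lay within 10 kb of it was assigned to the gene, which gave 11 of the 8281 regions in both lists.

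The regions come from ATAC-seq, in which a transposase inserts sequencing adapters where DNA is accessible. Libraries were made from 50000 liver nuclei each, 4 from control mice and 4 from Alb-D2KO mice, all adults of strain C57BL/6 in the labels and C57BL/6J in the study's methods. In Alb-D2KO mice a floxed Dio2, the gene of the type 2 deiodinase that makes active thyroid hormone, is inactivated by Cre under the albumin promoter, which is active in hepatocytes. The control libraries carry Cre in their names, and the sex and exact age of the mice are not given in the sources used here. Deletion is limited to hepatocytes, while the nuclei came from whole liver, so a region lost from every nucleus and a region lost from a share of nuclei cannot be told apart.

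NRF2, the product of Nfe2l2, is a transcription factor that KEAP1 holds in the cytoplasm and presents for ubiquitination and degradation. Oxidants and electrophiles modify cysteines of KEAP1, NRF2 then accumulates in the nucleus, pairs with a small MAF protein and binds antioxidant response elements at its target genes. The targets supply glutathione, thioredoxin reducing power, quinone reduction and haem breakdown. In liver the pathway is known for the defence against reactive drug metabolites and peroxides.

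One list held 8031 regions called open in control liver with no overlapping call in Alb-D2KO liver, here named RCAs for reduced chromatin accessibility, and the other held 250 regions called only in Alb-D2KO liver. A region without a call in one genotype is not thereby shown to be closed there. Both were called on pooled libraries, so no value has an error between animals and no test between the genotypes was possible. Read depth is unknown from the lists. No region of either list lay within 10 kb of Dio2. Its nearest RCA was 930 kb away, so the deletion itself cannot be read from these lists. Within 10 kb of the body, 25.2% of all protein-coding genes had at least 1 RCA. Of the marker genes, 5 of 5 hepatocyte, 2 of 3 endothelial, 1 of 3 cholangiocyte, 0 of 3 Kupffer cell and 0 of 3 stellate cell genes had an RCA, with 0 Alb-D2KO-only regions at any of them. Regions shared by the genotypes are not in the lists, so the tissue label could not be checked against them.

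Of the members, 5 had at least 1 RCA, 10 RCAs in all, and 1 had a region called only in Alb-D2KO liver. Keap1 had 4 RCAs, Gclc and Cat had 2 each, and Nqo1 and Txnrd1 had 1 each. Srxn1 had the Alb-D2KO-only region. Nfe2l2, Hmox1, Gclm and Sod2 had no region of either list. Across all protein-coding genes, 25.2% had at least 1 RCA and 1.02% had at least 1 Alb-D2KO-only region by the same rule. At Keap1, Nqo1 and Gclc an RCA lay on the gene's own start site, within 200 bp of an annotated start, compared with 6.00% of all protein-coding genes. Since the genes were chosen and not sampled, these shares are set side by side without a test.

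**Figure D1:**
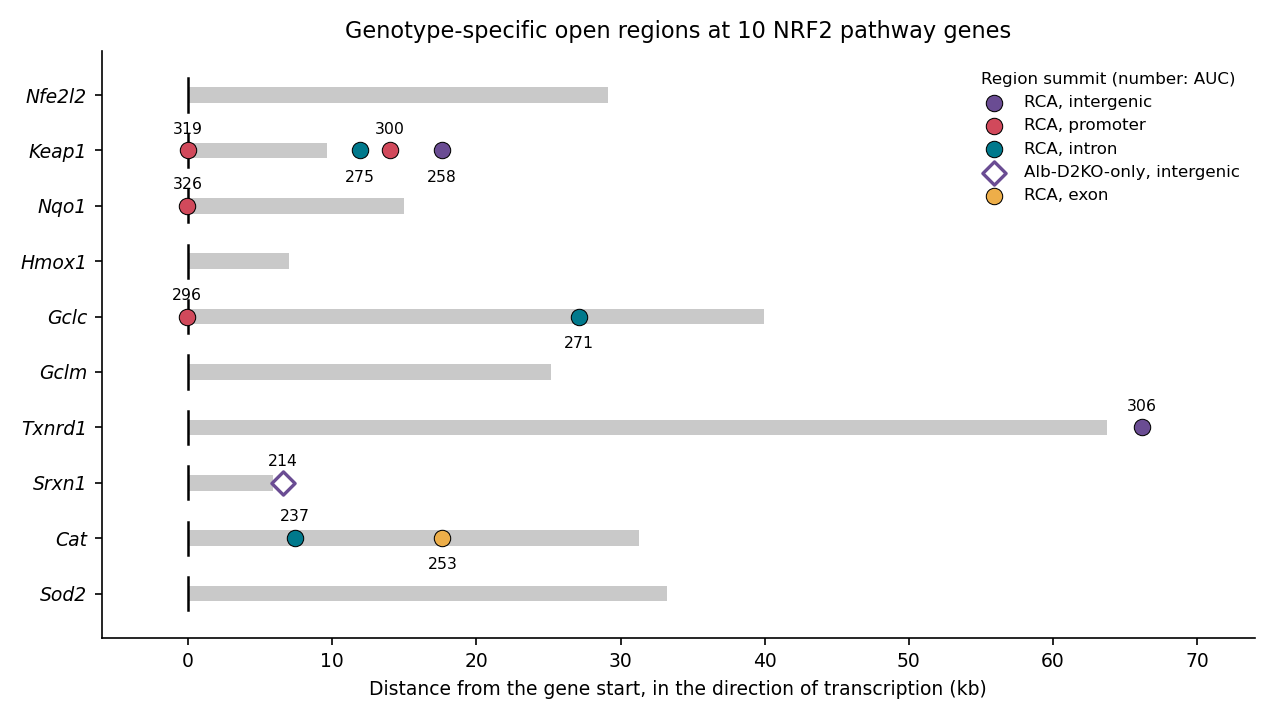
Each row is a gene drawn from its start (black tick) in the direction of transcription, with the body as a grey bar and distance in kb. Filled circles are summits of RCAs coloured by class, the open diamond is the Alb-D2KO-only region, and the number is the area under the curve (AUC), from 214 at Srxn1 to 326 at Nqo1. RCAs sit on the starts of Keap1, Nqo1 and Gclc, and the class intron beside Keap1 refers to an antisense gene.

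The sequences of 5 regions are shown because they are the start regions in the RCA list, 1 distal region of a gene with an RCA at its start, and the single region called only in Alb-D2KO liver. They are GRCm38 (mm10) reference sequence, written 5′ to 3′ on the strand of the gene and without untranslated sequence. Capitals mark matches to GGGCGG, the SP1 box, to TTGCNNAA, a C/EBP motif, or to TGTTTAC, a forkhead (FOXA) motif, on either strand. The Keap1 start region upstream of the start was chr9:21239362-21239420 on the minus strand, and for Nqo1 the 300 bases next to the start are shown out of 423 upstream, chr8:107403207-107403506, also on the minus strand. The Gclc start region upstream of the start was chr9:77754388-77754534 on the plus strand. The 300 bases around the summit of the intronic Gclc region were chr9:77781526-77781825 and the Srxn1 region was chr2:152112013-152112193, both on the plus strand.
Keap1 start: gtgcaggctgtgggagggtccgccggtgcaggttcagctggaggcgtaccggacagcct
Nqo1 start: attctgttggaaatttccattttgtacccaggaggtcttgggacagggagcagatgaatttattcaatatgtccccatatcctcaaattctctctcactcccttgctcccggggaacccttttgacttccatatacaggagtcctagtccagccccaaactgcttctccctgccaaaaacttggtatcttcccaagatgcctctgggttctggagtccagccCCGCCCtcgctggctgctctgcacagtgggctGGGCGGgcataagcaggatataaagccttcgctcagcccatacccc
Gclc start: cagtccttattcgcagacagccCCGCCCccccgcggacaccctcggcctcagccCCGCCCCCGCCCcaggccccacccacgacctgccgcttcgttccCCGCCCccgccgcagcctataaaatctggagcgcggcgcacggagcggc
Gclc intron: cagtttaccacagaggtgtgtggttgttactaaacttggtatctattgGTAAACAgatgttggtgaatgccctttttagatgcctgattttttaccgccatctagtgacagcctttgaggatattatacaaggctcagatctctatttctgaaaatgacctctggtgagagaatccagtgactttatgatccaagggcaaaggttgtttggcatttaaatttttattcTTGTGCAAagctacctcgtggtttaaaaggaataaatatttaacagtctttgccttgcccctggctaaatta
Srxn1, Alb-D2KO-only: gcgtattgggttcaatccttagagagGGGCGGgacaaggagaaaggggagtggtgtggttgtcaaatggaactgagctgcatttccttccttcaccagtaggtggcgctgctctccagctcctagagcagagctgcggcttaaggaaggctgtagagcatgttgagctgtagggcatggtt

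The regulators differed in their counts. Nfe2l2 (ENSMUSG00000015839.6, chromosome 2, 75675513 to 75704641, minus strand, 29.1 kb) had no RCA and no Alb-D2KO-only region. Its nearest RCAs lay 31.9 kb and 67.8 kb beyond the ends of the gene. Keap1 (ENSMUSG00000003308.15, chromosome 9, 21229730 to 21239361, minus strand, 9.63 kb) had the most RCAs of the 10 genes. Its start RCA spanned 21239046 to 21239420, was 375 bp wide and had an AUC of 319, the area under the significance curve that the peak caller gave the region in the pooled control call. Divided by width, this area was 0.536 to 1.37 per bp over the member RCAs and 0.221 to 2.21 over all RCAs, while no RCA had a summit −log10 p under 4.64, so the AUC is used here as the caller's own measure and not read as −log10 p summed over every base. The summit lay 1 bp upstream of the start. Of its bases, 59 lay upstream of the start and 316 lay from the start on, all 316 in the untranslated part of exon 1.

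The other 3 RCAs of Keap1 lay beyond the 3′ end of the gene, in and next to the antisense gene Gm16754. The closest, at 21227327 to 21227586, was 2.14 kb from the end of Keap1, 260 bp wide, in an intron of Gm16754, with an AUC of 275. The next, at 21225079 to 21225619, was 541 bp wide with an AUC of 300 (299.6 before rounding) and covered a start site of Gm16754, so that it was counted in the promoter class without being a Keap1 promoter. The farthest, at 21221634 to 21221822, was intergenic, 189 bp wide, with an AUC of 258. The start of Keap1 was the nearest protein-coding start to all of them, at 11.8, 13.7 and 17.5 kb. The narrow intergenic region had a −log10 q of 3.64 at its summit, the highest of the member RCAs and above 90.1% of all RCAs. Of its bases, 49.2% are marked as repeat in the reference sequence, the highest share of the member RCAs. The median over all RCAs was 5.99% and the upper quartile 12.9%.

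The control regions carry running numbers in genome order, and the 4 Keap1 RCAs have consecutive numbers, 11183 to 11186. No other region of the control call lay between them, over gaps of 3.26, 1.71 and 11.5 kb. All open regions called in control liver from the Keap1 start to 7.91 kb beyond its end were therefore in the RCA list. Outside this stretch, 11 control regions that are not in the RCA list lay between the flanking RCAs. These RCAs were 196 kb beyond the end of the gene and 11.2 kb upstream of its start. The upstream one has number 11190, so the control regions numbered between 11186 and 11190 lay in those 11.2 kb and are not in the RCA list. With an AUC of 278, it was the nearest RCA outside the limit of 10 kb at any member. The intergenic Keap1 RCA at 7.91 kb was the farthest inside the limit.

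The quinone and haem enzymes were also split. Nqo1 (ENSMUSG00000003849.8, chromosome 8, 107388225 to 107403206, minus strand, 14982 bp) encodes the NAD(P)H quinone reductase, a classical NRF2 target. Its single RCA, at 107403022 to 107403629, was the widest (608 bp) and had the highest AUC (326) of the member RCAs. The summit lay 48 bp upstream of the start. The region reached 423 bp upstream of the start and 185 bp from the start on, across exon 1 and into intron 1. Its AUC was above 67.9% of all RCAs and 56.9% of promoter RCAs, while its summit −log10 q of 2.75 was the lowest of the member RCAs and above only 12.1% of all RCAs. Between the flanking RCAs, 63.8 kb and 32.7 kb from the gene, there was 1 control region that is not in the RCA list. Hmox1 (ENSMUSG00000005413.8, chromosome 8, 75093621 to 75100589, plus strand, 6.97 kb), which encodes the inducible haem oxygenase, lay in a stretch without RCAs. The nearest ones were 1741 kb and 1944 kb away, and 14 control regions outside the RCA list lay in this interval of 3692 kb.

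Both subunits of glutamate cysteine ligase, the rate-limiting enzyme of glutathione synthesis, were measured. Gclc, the catalytic subunit (ENSMUSG00000032350.9, chromosome 9, 77754535 to 77794485, plus strand, 39951 bp), had 2 RCAs. The start RCA, at 77754388 to 77754633, was 246 bp wide with an AUC of 296, a summit 51 bp upstream of the start and 147 bp of upstream sequence. The intronic RCA, at 77781526 to 77781864, was 339 bp wide with an AUC of 271 and lay in intron 6 of the transcript with 16 exons, 27.1 kb from the start. These RCAs also had consecutive numbers, so no other control region lay in the 26.9 kb between them. Between the RCAs flanking Gclc, 36.2 kb and 156 kb from the gene, 4 control regions were not in the RCA list. Gclm, the modifier subunit (ENSMUSG00000028124.15, chromosome 3, 122245557 to 122270732, plus strand, 25.2 kb), had no RCA. It had the most RCAs in its wider surroundings, 17 within 500 kb of the start compared with 10 for Gclc and a median of 4 over protein-coding genes, and its closest RCA was 41.4 kb from the gene.

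Txnrd1, the cytosolic thioredoxin reductase (ENSMUSG00000020250.10, chromosome 10, 82833951 to 82897712, plus strand, 63.8 kb), was the longest member. Its only RCA, at 82899838 to 82900212, was intergenic, 375 bp wide with an AUC of 306, and lay 2125 bp beyond the end of the gene and 66.2 kb from its start. Of the bases of this RCA, 45.1% are marked as repeat. The start of Eid3, a gene within the body of Txnrd1, was nearer, at 33.2 kb, so this was the only member RCA whose nearest protein-coding start belonged to another gene. Between the RCAs flanking Txnrd1, 38.3 kb and 404 kb from the gene, 4 control regions were not in the RCA list. Srxn1, which encodes sulfiredoxin and restores overoxidised peroxiredoxins (ENSMUSG00000032802.8, chromosome 2, 152105516 to 152111376, plus strand, 5.86 kb), was the shortest member and the only one with a region in the other list. Its Alb-D2KO-only region, at 152112013 to 152112193, was 181 bp wide and intergenic, 636 bp beyond the end of the gene and 6.59 kb from the start. With an AUC of 214 it ranked 178 of 250 in its list, whose median was 226. The RCA list had no region nearer to Srxn1 than 109 kb.

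Cat, which encodes the peroxisomal catalase (ENSMUSG00000027187.10, chromosome 2, 103453849 to 103485160, minus strand, 31.3 kb), had 2 RCAs inside the gene and none at its start. One, at 103477498 to 103477796, lay in intron 1 with its summit 7.42 kb from the start, was 299 bp wide and had the lowest AUC of the member RCAs, 237. The other, at 103467167 to 103467611, was 445 bp wide with an AUC of 253 and covered part of intron 7 and 63 coding bases of exon 8. No control region lay in the 9.89 kb between them. Between the flanking RCAs, 372 kb and 62.1 kb from the gene, there was 1 control region that is not in the RCA list. Its number places it on the start side of the RCA in intron 1. Sod2, the mitochondrial superoxide dismutase (ENSMUSG00000006818.5, chromosome 17, 13006846 to 13040063, plus strand, 33.2 kb), had no region, although an RCA lay 14.8 kb from the gene, outside the limit of 10 kb, with an AUC of 243. Between its flanking RCAs 3 control regions were not in the RCA list, and the same number was found for Nfe2l2. The positions of these regions are not in the lists. Whether the starts of the members without an RCA at their start were open in both genotypes was therefore not tested.

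Because longer genes offer more room for a region, each member was set beside the 500 other protein-coding genes nearest to it in length. The share of these genes with at least 1 RCA ran from 17.2% for the length of Hmox1 to 31.0% for that of Txnrd1, with a median of 27.3%. Summed over the 10 lengths, these shares come to 2.59 genes and 3.99 RCAs, beside the 5 genes and 10 RCAs observed. The highest count was that of Keap1. Only 3 of the 500 genes of its length (0.6%) had 4 RCAs and none had more, their mean being 0.352 ± 0.708 (SD over genes), and 345 of all protein-coding genes (1.59%) had at least 4. Keap1 also lay in surroundings with many RCAs, 14 within 500 kb of its start, its own included. The median over protein-coding genes was 4, and 86.2% of them had fewer than Keap1. The match on length takes no account of such local density. For Gclc and Cat, 9.6% and 8.4% of genes of their length had at least 2. A single RCA, as at Nqo1 and Txnrd1, was found or exceeded in 27.4% and 31.0%. An RCA at an own start was carried by 3.4% to 9.0% of the genes of similar length, which sums to 0.614 genes beside the 3 members. Regions of 1 gene are neighbours and not independent, and 4 of the 10 RCAs belong to Keap1.

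**Figure D2:**
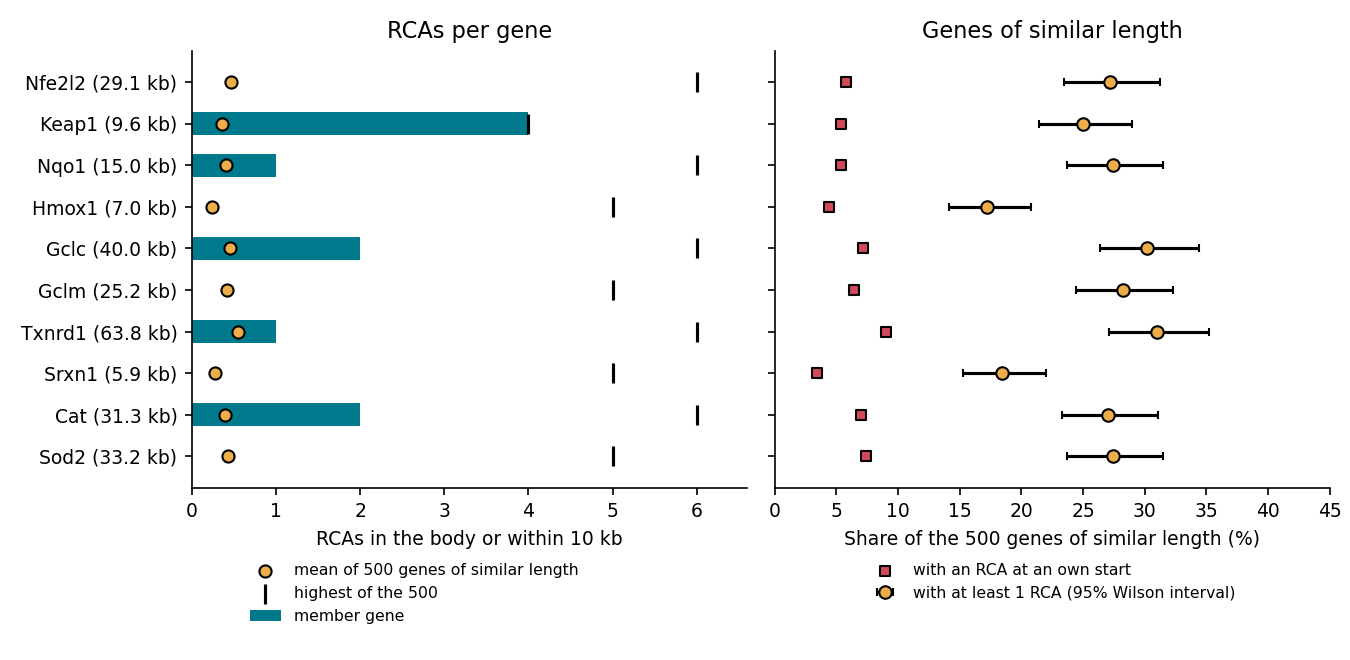
On the left, bars give the RCAs of each member (0 to 4), circles the mean and ticks the highest count among the 500 protein-coding genes nearest in length. On the right, circles give the share (%) of those 500 genes with at least 1 RCA with its 95% Wilson interval, which covers counting error over genes only, and squares the share with an RCA at an own start. Keap1 reaches the highest count of its length group, and the members without an RCA match the most frequent outcome in theirs.

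In signal the member RCAs lay near the middle of the list. Their median AUC was 286 (237 to 326), while all RCAs had a median of 278 with quartiles of 232 and 351. Of the 10, 5 lay above the median of all RCAs, and 3 of 10 had an AUC of at least 300, which 40.8% of all RCAs reached. The median width was 357 bp against 326 bp. At the summit, the median −log10 q was 3.02 against 3.14, and 6 of 10 had a q of at most 0.001 against 65.8% of all RCAs. The start regions of Keap1, Nqo1 and Gclc were close to each other in AUC (319, 326 and 296) and near the median of 304 for all promoter RCAs. By class, 4 member RCAs were promoter, 1 exon, 3 intron and 2 intergenic, compared with 19.4%, 10.2%, 40.04% and 30.4% of all RCAs. In position, 6 overlapped the body of the member and 4 did not.

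**Figure D3:**
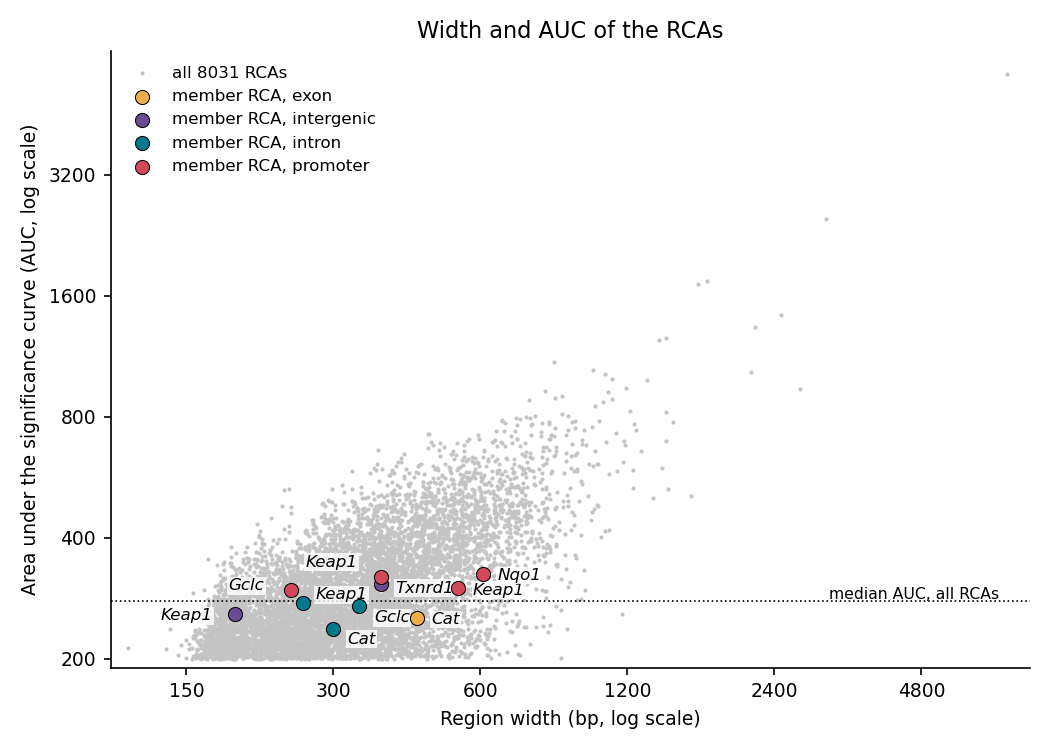
Width (bp) and AUC of all 8031 RCAs are plotted in grey on logarithmic axes, with the 10 member RCAs coloured by class and named by gene. The dotted line is the median AUC of all RCAs (278), and the members lie on both sides of it, between 237 and 326.

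In base composition the start regions of Keap1 and Gclc were the richest in GC of the member RCAs. GC content was 74.9% at the Keap1 start and 73.2% at the Gclc start, with 43 and 32 CpG dinucleotides, against a median of 60.05% for promoter RCAs. The Nqo1 start was lower, at 53.3% with 17 CpGs. The intronic Gclc RCA had the lowest GC content of the member RCAs, 37.8%, with 3 CpGs. The box GGGCGG occurred in all 3 start regions. At Gclc it began 125, 93, 87 and 49 bases before the start and at Nqo1 78 and 46 bases before it, and at Keap1 all 5 copies lay downstream of the start. It was present in 6 of the 10 member RCAs, namely the 4 of Keap1 and the starts of Nqo1 and Gclc, in 20.9% of all RCAs and in 53.3% of promoter RCAs. The Alb-D2KO-only region of Srxn1 held 1 copy.

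The RCAs of the Gclc intron and beyond Txnrd1 each held a FOXA match together with a C/EBP match, and the Cat intron region held a C/EBP match. Forkhead and C/EBP factors are regulators of hepatocyte genes. The letters TGTTTAC were present in 7.63% and TTGCNNAA in 20.9% of all RCAs. Shares over RCAs of similar width sum to 0.785 and 2.16 regions, beside 2 and 3 of the 10 member RCAs. The share of RCAs with both was not counted. The AP-1 letters TGANTCA were found in 1 member RCA, the Gm16754 start region, against 10.9% of all RCAs. The HNF4 letters CAAAGTCCA were in none, against 2.97%.

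The antioxidant response element was searched as TGACNNNGC on both strands, a pattern that can overlap an AP-1 match. It was not found in any of the 10 member RCAs or in the Srxn1 region, against 19.1% of all RCAs and 9.05% to 29.8% of RCAs of similar width. In the 1000 bp before the annotated starts the letters occurred at 2 of the 10 genes, TGACTCCGC 262 bases before Nfe2l2 and TGACGGTGC, on the opposite strand, 134 bases before Gclm, and at 29.1% of protein-coding genes. In RefSeq promoter windows, which run from 250 bases before to 50 bases after each start and matched 8 members, the letters were present at Gclm, Nfe2l2, Srxn1 and Txnrd1, against 15.03% of genes. Hmox1 and Gclc were the members without an entry. Of all genes with an RCA at an own start, 31.2% had the letters in the 1000 bp before the gene start. A match is a string of letters and not a binding event, and a missing match says only that these letters are not in the window.

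A wider list of 46 pathway genes was counted in the same way. Of these, 21 (45.7%) had at least 1 RCA, 39 RCAs in all, and no Alb-D2KO-only region was found at any of them. The mean share over genes of similar length was 25.3%. By role, 4 of 10 regulators, 2 of 6 glutathione genes, 5 of 12 thioredoxin and peroxiredoxin genes, 4 of 6 genes of NADPH supply, 1 of 2 superoxide dismutase genes, 2 of 5 haem and iron genes and 3 of 5 detoxification genes had one.

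In this list, 5 genes (10.9%) had an RCA at a start of their own, against 6.00% of all protein-coding genes and a mean of 5.89% over genes of similar length. The start of any annotated transcript of the gene counts here. Relative to the gene start, the regions lay at 198 bp for G6pdx, −197 bp (upstream) for Me1, 1085 bp for Bach2 and 4431 bp for Blvrb. For Gpx4 the distance was taken only for its other RCA, which is intronic, at 5022 bp. The genes were Bach2 (AUC 476), a repressor that shares MAF partners with NRF2, G6pdx (315) and Me1 (215), which supply NADPH, Blvrb (309), a biliverdin reductase, and Gpx4 (234), the lipid hydroperoxide reductase. The G6pdx region also overlaps the gene Ikbkg, and the Me1 region also overlaps the gene A330041J22Rik. The highest AUC belonged to an intergenic region 908 bp wide beyond the end of Gpx1 (804), followed by regions at Mafg (540), which encodes a small MAF partner of NRF2, Osgin1 (483), Bach2 and Ephx1 (436), the microsomal epoxide hydrolase. The Osgin1 region lay on a start of Necab2, a neighbouring gene. In all, 11 of the 21 genes with an RCA had a highest AUC above that of the members, 326 at Nqo1. Over all RCAs, 67.9% had an AUC below that of Nqo1. Each gene's value is the highest of its RCAs, 39 in all over the 21 genes, and rises with their number by construction.

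**Figure D4:**
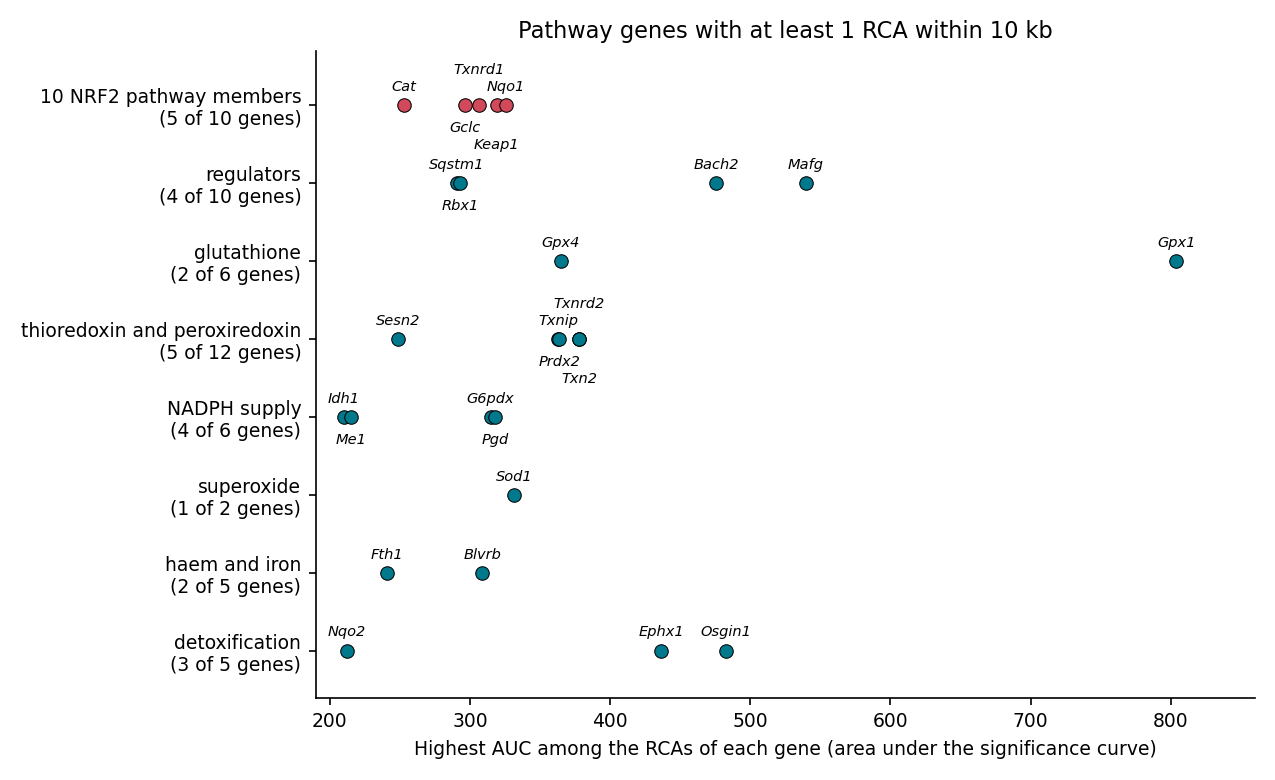
Points give, for each gene with at least 1 RCA, the highest AUC among its RCAs, in rows by role, with the number of genes that had one beside each role. The members (red, top row) lie between 253 and 326, and 11 of the 21 other genes (332 to 804), with Gpx1 the farthest, lie to their right.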

How the data were processed

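The lists of open regions were used as deposited. Adapters were removed by the authors with NGmerge, and reads were aligned to mm10 with BWA 0.7.17 and called with Genrich 0.6 on pooled libraries, per the submitters' processing notes and the study's methods. Low-quality alignments and blacklisted regions were removed by the authors, and a region was taken out of its list where it met an open region of the other genotype. The deposited signal is an area from the peak caller, under its significance curve (AUC), with a lowest value of 200 in the lists. Whether it was summed above a threshold is not given in the sources used here. The deposited score, the AUC per base scaled and capped at 1000, was only checked. The −log10 p and −log10 q deposited with each region are those of its summit.

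From the lists onwards, gene bodies, starts and classes came from GENCODE M21, an mm10 annotation that is not the release named in the methods. Regions within 200 bp of any annotated start were classed as promoter, the rest as exon, intron or intergenic in that order. Sequence was read from GRCm38 and promoter windows from RefSeq. Counts used Python 3.11.15 with pandas 2.3.3, and the counting, classing and motif steps were tested on simulated data. No result was tested statistically, because pooled calls have no spread between animals.

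The members and lists were chosen with earlier results of these data known. Genes named were the 10 members, wider-list genes with an RCA at an own start, the 5 of them with the highest AUC, Dio2, and genes that a member region overlapped or whose start was nearer. Necab2, Ikbkg and A330041J22Rik were named after the values were seen. Alternatives changed the distance, the AUC or q minimum, merging, promoter window, gene set and motif. RNA-seq, methylation, ChIP-seq and Hi-C data were not analysed here.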

Additional observations from a re-analysis of the deposited data

How the results depend on the processing

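Of 48 alternatives over 8 results, 30 left the value within 1.5 times of the reported count or within its interval. The number of RCAs at the members was 6 within 1 kb of the body, 6 in the body alone, 4 within 10 kb of the gene start, 3 with an AUC of at least 300 and 6 with a summit q under 0.001. The number of members with an RCA was 3 at that AUC and 3 at that q. The 2 filters left different genes: at the AUC minimum Keap1, Nqo1 and Txnrd1, and at the q minimum Keap1, Gclc and Txnrd1. The Alb-D2KO-only region of Srxn1 gave 0 regions in the body alone, 0 at the AUC minimum and 0 at the q minimum. Promoter RCAs were 2 at the AUC minimum. The median AUC of the 3 member RCAs of all classes that passed this minimum was 319, which is higher by construction. The median share of genes of similar length with an RCA was 14% at the AUC minimum, 21.5% at the q minimum and 17.3% for gene bodies. Wider pathway genes with an RCA were 13 within 1 kb and 13 in the body. The shorter core TGACNNNG was found in 1 member RCA, at Cat, against 54.1% of all RCAs. The smaller windows and filters hold fewer regions by construction. Calls were made on pooled libraries, so no library could be left out. No paired analysis was possible because the result comes from no test and the lists hold no separate libraries.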
